A study of Mus musculus with 6 samples.

Results

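The cytosolic ribosomal protein genes of the mouse were followed across 3 kinds of T cell: naive, Th17 and regulatory (Treg). Members were chosen by name and biotype only: a protein-coding gene called Rps or Rpl with a number and an optional letter, x or l ending, or one of Rplp0, Rplp1, Rplp2 and Rpsa. The rule found 84 members among 54532 genes, 32 of the small and 52 of the large subunit, on 19 chromosomes. A further 6 names fit the pattern but are not annotated as protein coding (Rpl6l, Rps3a2, Rps3a3, Rps4l, Rpl32l and Rps12l1) and were left out.

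RNA came from wild-type mice, with 2 libraries for each of the 3 cell types. Every library is labelled as thymus and as untreated; the sources used here do not give the age of the mice or how Th17 and Treg cells were obtained. Naive T cells have not yet met antigen, Th17 cells are helper cells named for the cytokine IL-17, and Treg cells, defined by the factor Foxp3, hold other immune cells in check. The deposited columns number the libraries of each type 1 and 5, and nothing says that they came from separate animals, so the spread behind each p-value is that between libraries and may be technical. Total counts ran from 16458939 to 17901331 per library. The Treg and Th17 labels matched a defining gene each, and no gene is given here for the naive label. Foxp3 averaged 1009 CPM in Treg, 14.3 in naive and 0.697 in Th17 libraries (CPM, read counts relative to the TMM-scaled library size). Il17a averaged 415 CPM in Th17 libraries with 0 counts elsewhere.

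A ribosome holds 1 copy of most ribosomal proteins, so cells make them in matched amounts. Their messenger RNAs are short, abundant and long-lived, and most begin with a C followed by a run of pyrimidines, the terminal oligopyrimidine (TOP) tract, through which the kinase mTOR and the RNA-binding protein LARP1 control translation and stability. T cells that leave quiescence make many new ribosomes. A few members have a second, paralogous gene whose protein can take the place of the usual one, and several act outside the ribosome as well. Ribosomal protein genes have also left many processed pseudogenes, copies of the messenger RNA pasted back into the genome, which can take up reads of the parent gene.

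Start-site windows of members discussed below are printed because the TOP tract is the feature the class is known for. They are RefSeq sequences on GRCm38.p6, 20 bases before to 10 bases from the annotated start on, on the gene's own strand. Capitals mark the part inside the window of the longest tract, or of the first where lengths are equal. Rps27, Rps6, Rps24 and Rplp2 follow or fall below the class, while Rps27l, Rpl7l1, Rpl13a, Rps2, Rpl41 and, without pseudogene counts, Rps10 stood above it. They lie at chr3:90213639-90213668 (minus strand, Rps27), chr4:86857358-86857387 (minus, Rps6), chr14:24490658-24490687 (plus, Rps24), chr7:141447631-141447660 (plus, Rplp2), chr9:66946066-66946095 (plus, Rps27l), chr17:46782647-46782676 (minus, Rpl7l1), chr7:45128736-45128765 (minus, Rpl13a), chr17:27635235-27635264 (minus, Rps10), chr17:24720043-24720072 (plus, Rps2) and chr10:128549159-128549188 (minus, Rpl41).
Rps27: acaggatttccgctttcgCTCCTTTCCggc
Rps6: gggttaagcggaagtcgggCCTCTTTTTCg
Rps24: acgcccccgcgctggggtCCTTCCTTgcgc
Rplp2: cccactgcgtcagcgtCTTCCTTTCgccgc
Rps27l: CCTCTCCactcctccccgccgcctctatcc
Rpl7l1: gcccggtgaggctgcgcaagcgcagtagct
Rpl13a: gataagaaaccctgcgacaagaCCTCCTCC
Rps10: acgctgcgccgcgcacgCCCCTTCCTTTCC
Rps2: tgcgtaggcagtcgagatctcgcgcttctt
Rpl41: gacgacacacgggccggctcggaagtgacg

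In Rps27, Rps6, Rps24 and Rplp2 the tract spans or lies next to the annotated start. In Rps27l the marked tract lies upstream of the start and at the edge of the window. Another tract of equal length, left in lower case, lies nearer the start. In Rpl13a the tract begins after the start and runs past the window's downstream edge. In Rps10 it spans the start and ends at that edge. Rpl7l1, Rps2 and Rpl41 hold none by the search rule given next, which does not show that their messenger RNAs lack a TOP tract. Of the 84 members, 64 had a promoter entry. A C followed by at least 7 pyrimidines, beginning within 30 bases of an annotated start on the gene's strand, was present in 40 of the 64 (62.5%), against 22.1% of 27025 genes searched the same way. The letters CCGGAAG, the core of an ETS-type motif, stood on either strand of the 250 bases before to 50 bases after the start in 40.6% of members and 9.93% of all genes. AAGATGGC, a YY1-type motif, stood in 9.38% and 3.19%, and CACGTG, an E-box, in 9.38% and 8.09%. CCGGAAG and AAGATGGC can overlap by their shared AAG, and a match describes letters, not a bound site.

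Ribosomal protein genes took the largest share of counts in naive libraries and the smallest in Th17 libraries. The 84 members held 11.6% and 15.9% of all counts in naive libraries 1 and 5. They held 5.20% and 5.98% in the Th17 pair, and 8.11% and 9.33% in the Treg pair. The 3 types did not overlap. The means were 13.8% ± 3.02 in naive, 5.59% ± 0.548 in Th17 and 8.72% ± 0.860 in Treg cells (SD, n = 2 each), so the share was 2.47 times as large in naive as in Th17 and 1.58 times as large as in Treg cells. An exact two-sided permutation test gave p = 0.333 for each pair, the smallest that 2 against 2 libraries allow. Of the 100 genes with the most counts, 45 were members. In bulk libraries, fewer cells of a type and less RNA per cell cannot be told apart, and a share also moves with all other transcripts.

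**Figure D1:**
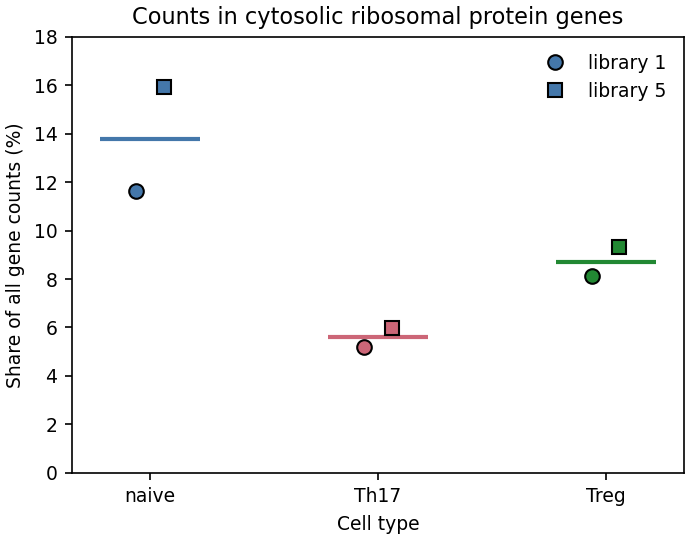
Share of all gene counts held by the 84 cytosolic ribosomal protein genes (y axis, %) in each library, by cell type (x axis); circles are libraries numbered 1, squares libraries numbered 5, and bars are means of 2. Both naive libraries lie above both Treg libraries, and both Treg libraries above both Th17 libraries.

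Gene by gene, nearly the whole class was lower in Th17 than in naive cells. Of 81 members with enough counts to test, 74 fell and 3 rose in Th17 cells (edgeR quasi-likelihood test, Benjamini-Hochberg adjusted p under 0.05 over 15543 genes), where 57.7% of all genes tested were called, 28.4% lower and 29.3% higher. The 4 that did not pass were Rps2, Rps10, Rpl24 and Rpl36al. The median log2 fold change of the members was -1.62, with an interquartile range of -1.96 to -1.19, against a median of -0.03 over all genes tested and -0.03 over the 2381 other genes at 100 CPM or more. The libraries of the 2 types did not overlap for 80 of the 81 members, where 78.8% of all genes did not overlap. The medians were -1.69 over 32 small subunit and -1.55 over 49 large subunit members.

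In Treg cells the class was lower than in naive cells by a smaller amount. There 61 members fell, 2 rose and 18 did not pass, where 43.4% of all genes tested were called, 19.9% lower and 23.6% higher. The median log2 fold change was -0.84, against -0.00 over all genes. Against Th17 cells, 50 members were higher in Treg cells, 2 were lower and 29 did not pass. Of all genes tested in this comparison, 38.4% were called, 19% higher and 19.4% lower. The members' median was 0.72. Libraries did not overlap for 78 members between Treg and naive cells and for 71 between Treg and Th17 cells, where 71.7% and 72.5% of all genes did not. These comparisons share libraries and are not independent of each other. Fewer members were called between Treg and naive cells without naive library 5 or Treg library 1. The same held between Treg and Th17 cells without Th17 library 1 or Treg library 5. Calls over all genes tested were fewer in these fits too. With 1 library left out in turn, the members' median ran from -1.07 to -0.55 for Treg against naive cells. For Treg against Th17 cells it ran from 0.55 to 0.85. In these fits a type stands on 1 library, which is assumed to vary like the others.

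The mean level followed the order naive, Treg, Th17 in 75 of the 81 members, and in 66 of them every naive library lay above every Treg library and every Treg library above every Th17 library, where 13.5% of all genes tested did so. Rps27l, Rpl7l1 and Rpl13a had the reverse order, Th17 above Treg above naive. Rps10, Rpl24 and Rpl36al were in the order naive, Th17, Treg. These levels are relative to the TMM scale. Scaling by total count moved the median of all genes to 0.21, 0.17 and -0.03 in the 3 comparisons (Th17 against naive, Treg against naive, Treg against Th17), and the median of the members to -1.37, -0.65 and 0.66.

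**Figure D2:**
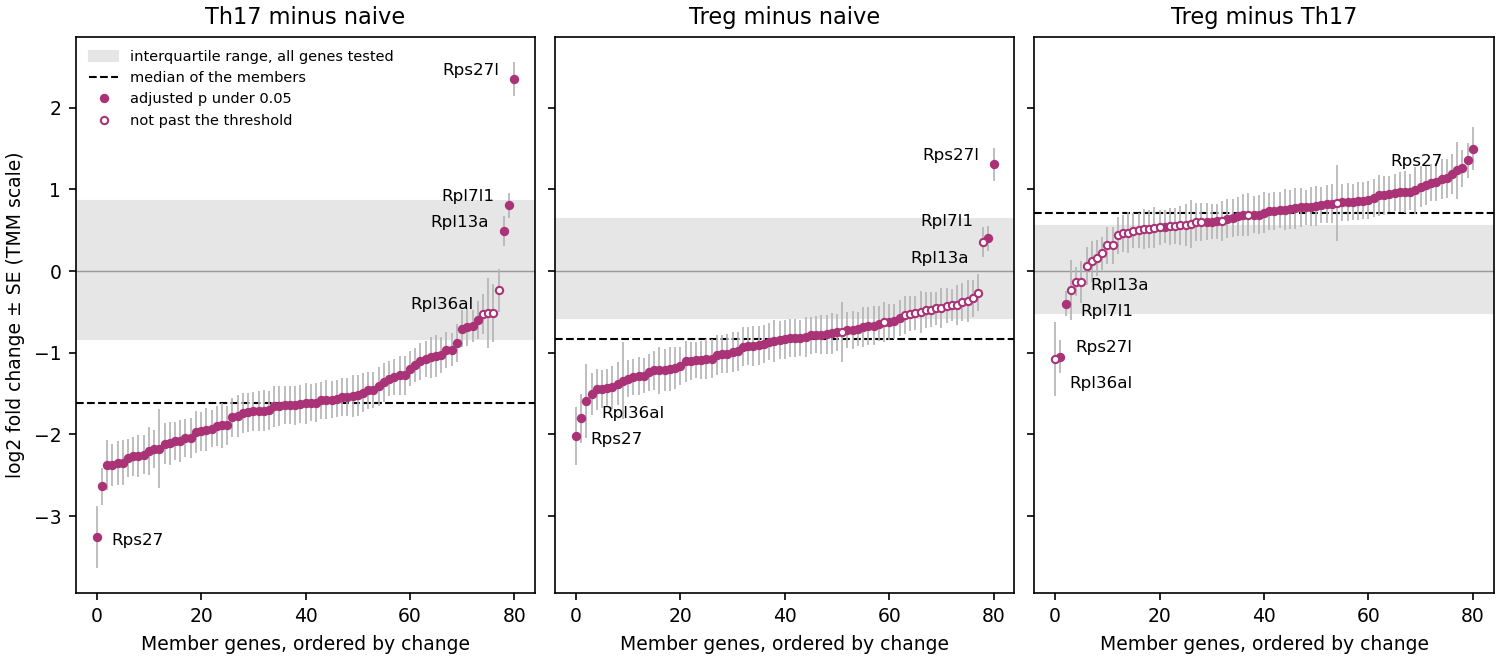
Log2 fold change of each of the 81 tested members (points, with approximate SE) on the TMM scale in the 3 comparisons, ordered from lowest to highest; filled points passed an adjusted p of 0.05, the dashed line is the members' median and the grey band the interquartile range of all genes tested. The class lies below 0 in Th17 and Treg cells against naive cells, with Rps27l, Rpl7l1 and Rpl13a above 0.

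B cell and myeloid marker sums and the mitochondrial share were higher in naive libraries than in all others. They overlapped between Th17 and Treg libraries, unlike the share of the class. Summed B cell markers stood at 56.6 and 66.6 CPM in naive libraries and at 4.91 to 7.31 CPM in the other libraries, with 8 of 8 markers lower in Th17 and in Treg than in naive cells. Ms4a1 and Blk were at or near 0 in Th17 and Treg libraries. Summed myeloid markers stood at 22.9 and 27.0 CPM against 1.07 to 3.11 CPM, with 4 and 5 of 5 tested markers lower. Erythroid markers summed to 25.6 CPM in Th17 library 1 and to between 0.699 and 9.88 CPM in the others. The part of these cells in the ribosomal result was not tested. Of 8 listed T cell genes, Foxp3 and Il17a among them, 7 fell and 1 rose in Th17 cells (median -1.51). In Treg cells 5 fell and 1 rose (median -0.90). Of all genes tested, 28.4% fell and 29.3% rose in Th17 cells, and 19.9% and 23.6% in Treg cells. Mitochondrial genes held 3.42% and 3.45% of counts in naive libraries and between 1.10% and 1.88% in the others.

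Transcript length moved with the change among other genes too. Among the other genes at 100 CPM or more, the 12 whose principal transcript has at most 600 bases had a median log2 fold change against naive cells of -1.17 in Th17 and -0.59 in Treg cells. The 60 between 600 and 1000 bases had -0.58 and -0.42, the 349 between 1000 and 2000 bases -0.13 and -0.11, and the 1916 longer ones 0.01 and 0.07. Members had medians of -1.73, -1.62, -1.34 and -1.60 in the same bins for Th17 (19, 32, 24 and 6 members), and of -1.09, -0.85, -0.73 and -0.84 for Treg cells. In each bin the members' median was the lower of the 2, and in Th17 cells the distance between them was smallest for the shortest transcripts. The part of length in the result was not tested.

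**Figure D3:**
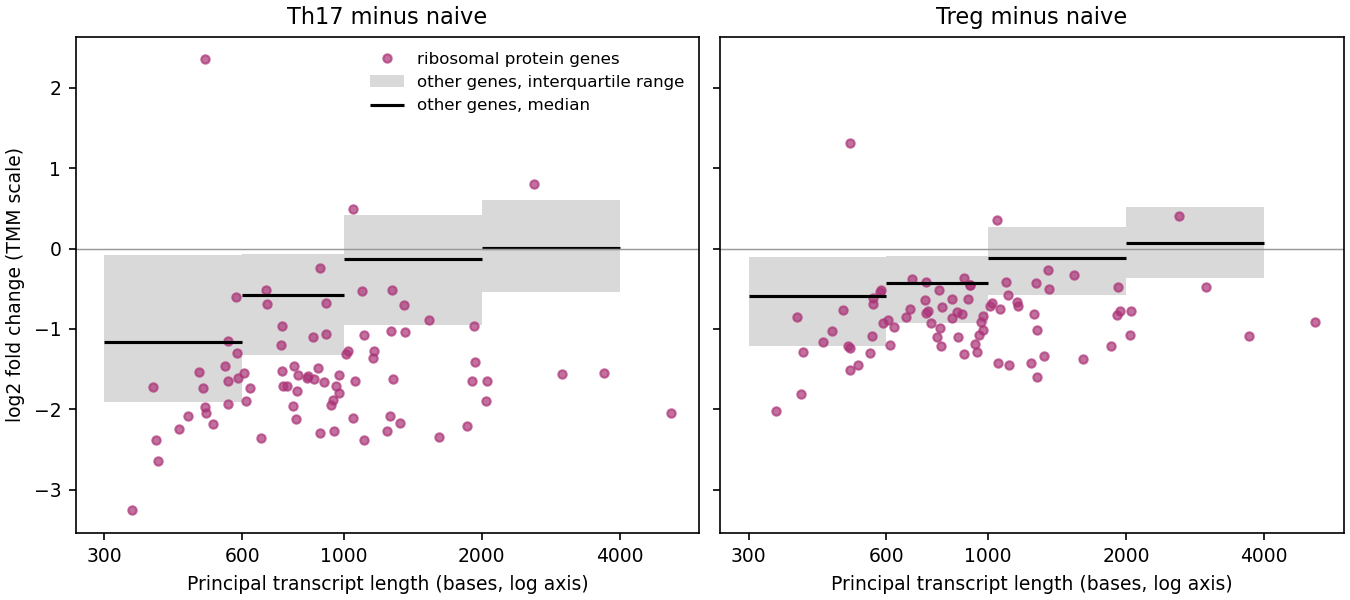
Log2 fold change on the TMM scale (y axis) against the length of the principal transcript in bases (x axis, log scale) for Th17 (left) and Treg (right) against naive cells; points are members, black lines the medians and grey bands the interquartile ranges of other genes at 100 CPM or more within each length bin. Other genes with the shortest transcripts also lie below 0, and most members lie below the line of their bin.

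The most abundant members fell in Th17 cells. Per kilobase of the gene length in the deposited table, the 5 highest were Rplp1, Rplp0, Rps3a1, Rps15 and Rpl8, with 4929, 2543, 2432, 2301 and 1600 CPM per kilobase on average over the 6 libraries. Rplp0, Rplp1 and Rplp2 encode the stalk that recruits elongation factors. Rplp0 stood at 4959 and 6580 CPM in naive, 2448 and 3180 in Th17 and 3796 and 4348 in Treg libraries; Th17 lay below naive (log2 fold change -1.04 ± 0.26 (SE), adjusted p = 0.00313), and Treg against naive did not pass (-0.50, adjusted p = 0.125). Its partner Rplp1 stood at 3652 and 5533 CPM in naive, 1071 and 1265 in Th17 and 1478 and 1758 in Treg libraries. Rplp1 fell in both types (-1.98 ± 0.26 and -1.51 ± 0.25, adjusted p = 1.32e-05 and 2.44e-04).

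**Figure D4:**
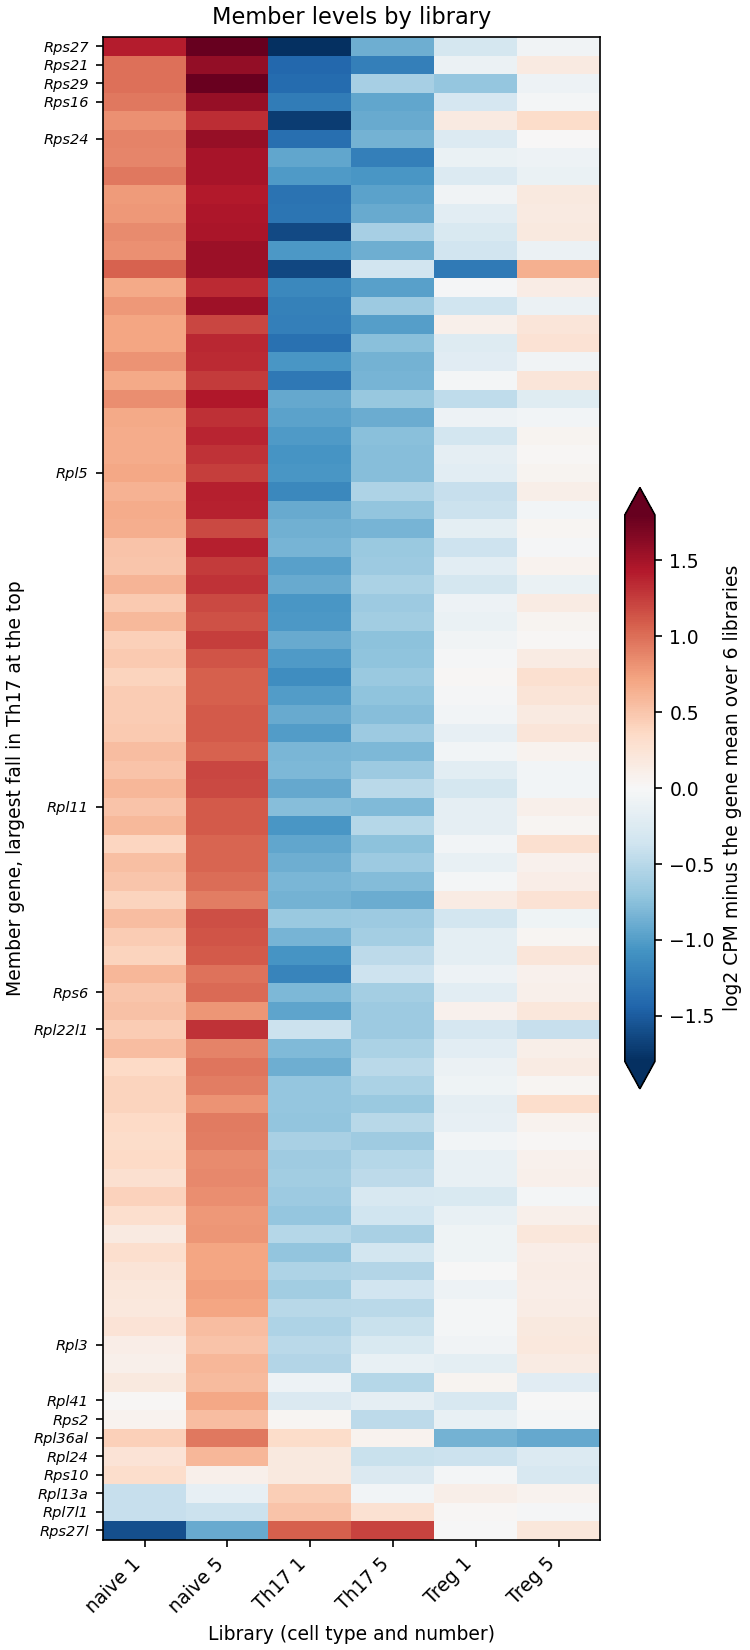
Level of each tested member in each library, as log2 CPM minus the gene's own mean over the 6 libraries (colour), with members in rows from the largest fall in Th17 at the top, libraries in columns, and names on a selection of the genes described. The naive columns are above the mean and the Th17 columns below it for most members, and naive library 5 is higher than naive library 1 in 80 of 81.

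Members with known tasks outside or at the edge of the ribosome mostly fell. In a list of 12 such genes, 11 fell and 1 rose in Th17 cells, and 10 fell and 0 rose in Treg cells. The medians were -1.63 and -0.84, close to those of the class. In the class itself, 74 of the 81 members tested fell in Th17 and 61 in Treg cells. Over all genes tested, 28.4% fell and 29.3% rose in Th17 cells, and 19.9% fell and 23.6% rose in Treg cells. Rps6, whose protein is phosphorylated by S6 kinases, stood at 2673 and 3843 CPM in naive, 1082 and 1238 in Th17 and 1670 and 2023 in Treg libraries, with no overlap between types. It fell in Th17 (-1.49 ± 0.24, adjusted p = 1.06e-04) and in Treg cells (-0.82 ± 0.24, adjusted p = 0.0122). Rpl5 and Rpl11, whose proteins bind the 5S ribosomal RNA and, when free, the p53 inhibitor Mdm2, had log2 fold changes of -1.90 and -1.62 in Th17 and of -1.07 and -0.86 in Treg cells, and all 4 values passed. Rps27a, which encodes ubiquitin fused to a ribosomal protein, fell by 1.78 and 1.21 on the log2 scale.

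Rpsa, the 40S protein also known as the laminin receptor, had a log2 fold change of -1.41 in Th17 and -0.77 in Treg cells. Rpl10, an X-linked gene whose protein joins the large subunit late in assembly, stood at 1683 and 2254 CPM in naive, 801 and 1031 in Th17 and 1045 and 1237 in Treg libraries. Rpl38, known in mouse for selective translation of Hox messenger RNAs, had a log2 fold change of -2.08 ± 0.25 in Th17 and -1.03 ± 0.25 in Treg cells. Rpl22, needed for the development of alpha-beta T cells in mouse, had -1.64 ± 0.23 and -0.78 ± 0.23. The single riser of this list was Rpl13a, described below. Among the Treg calls of these genes, those of Rpl10, Rpl22, Rpl38, Rps6 and Rplp2 ended without naive library 5 and without Treg library 1. Those of Rpl5 (adjusted p = 0.0564) and Rpl11 (adjusted p = 0.104) ended without Treg library 1, and that of Rpsa without Treg library 1 (adjusted p = 0.202) or 5 (adjusted p = 0.0619).

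To ask which members departed from the class itself, the libraries were scaled on the class, by the median ratio over the 79 members with a mean of at least 100 counts, and all genes were tested again. On this scale 0 means a change equal to the class median. A total of 25 of 81 members departed between Th17 and naive cells, 16 above and 9 below, where 73.9% of all genes tested passed, 69.1% above and 4.78% below. Between Treg and naive cells 7 departed (4 above, 3 below) against 48.5% of all genes (43.5% above, 5.05% below), and between Treg and Th17 cells 8 (1 above, 7 below) against 44.1% (5.7% above, 38.4% below). With so many genes called, an adjusted p near the threshold lies closer to the raw p in Th17 against naive cells than in the Treg comparisons. Small subunit genes made up 7 of the 9 that fell below the class in Th17 cells and 5 of the 16 that stood above it. The share of the members' counts held by small subunit genes was 46.8% and 47.4% in naive, 43.5% and 42.5% in Th17 and 44.1% and 44.3% in Treg libraries.

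The number of departures called changed with single libraries left out as well, though some values moved little. For Rps27 in Treg against naive cells the class-scale value was -1.13 without Treg library 1 and -1.15 without Treg library 5. That of Rps29 in Th17 cells moved more, to -0.51 without Th17 library 1. Such fits leave a type with 1 library, so a call can end while the value stays. Without Th17 library 1, Treg library 1 or Treg library 5 in turn, 14 members departed between Th17 and naive cells instead of 25. Between Treg and naive cells 1 departed without Treg library 1 and 2 without Treg library 5. Between Treg and Th17 cells 1 departed without Th17 library 1, Treg library 1 or Treg library 5, and 13 without naive library 1. Of the members described below, the departures of Rpl3, Rpl7l1, Rpl13a, Rps27, Rps29 and Rplp1 in Treg against naive cells each ended without Treg library 1 and without Treg library 5, as did those of Rpl36al and Rpl41 between Treg and Th17 cells. The departures of Rps10, Rps24 and Rps29 in Th17 cells ended without Th17 library 1.

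Rps27l went furthest from the class. It encodes a close relative of the small subunit protein of Rps27 and is known as a target of p53. Rps27l (ENSMUSG00000036781, chromosome 9, 66946086 to 66949516, plus strand, mm10) stood at 18.7 and 30.02 CPM in naive libraries, 118 and 131 CPM in Th17 cells and 55.7 and 64.7 CPM in Treg libraries. Every Th17 library lay above every Treg library, and every Treg library above every naive one. On the TMM scale the log2 fold change was 2.35 ± 0.21 in Th17 (5.11-fold, adjusted p = 2.73e-07) and 1.31 ± 0.20 in Treg against naive cells (2.47-fold, adjusted p = 1.27e-04), and -1.05 ± 0.20 in Treg against Th17 cells (adjusted p = 6.84e-04). Relative to the class it was 3.98 ± 0.41 and 2.18 ± 0.38 above. All 6 calls of Rps27l held in each alternative analysis run.

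Its parent gene Rps27 moved the other way. Rps27 (chromosome 3, 90212522 to 90213651, minus strand) stood at 1210 and 2028 CPM in naive, 92.6 and 247 in Th17 and 365 and 434 in Treg libraries. The types did not overlap, but the Th17 libraries differed from each other by 2.66 times. Rps27 had the lowest log2 fold change of the class in both types, -3.25 ± 0.38 in Th17 (adjusted p = 4.31e-06) and -2.02 ± 0.36 in Treg cells (adjusted p = 3.93e-04), with class-scale values of -1.67 ± 0.32 and -1.14 ± 0.32 (adjusted p = 5.89e-07 and 0.00120). The second of these departures ended without Treg library 1 (adjusted p = 0.0914) or 5 (adjusted p = 0.0806). Rps27l held 1.52% and 1.46% of the pair's counts in naive libraries, 56.0% and 34.7% in Th17 cells and 13.3% and 13.0% in Treg libraries. Thus in Th17 library 1 the paralog had more counts (2201) than its parent (1730), while in naive library 1 it had 290 against 18730.

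Rpl7l1, a relative of Rpl7 known from the assembly of the large subunit, rose where Rpl7 fell. Rpl7l1 (chromosome 17, 46773907 to 46782672, minus strand) stood at 87.9 and 89.2 CPM in naive, 167 and 142 in Th17 and 119 and 116 in Treg libraries, again with no overlap. It was higher in Th17 cells (log2 fold change 0.80 ± 0.15, adjusted p = 4.23e-04) and in Treg cells (0.40 ± 0.15, adjusted p = 0.0450), and lower in Treg than in Th17 cells (-0.40 ± 0.15, adjusted p = 0.0499). The 2 Treg calls were close to the threshold and ended in 8 and 6 of 14 alternatives. Rpl7 stood at 2138 and 3175, 1016 and 1176, and 1497 and 1730 CPM in the same order, and fell in both types (-1.28 ± 0.24 and -0.72 ± 0.23), though the Treg call ended without naive library 5 or either Treg library (adjusted p = 0.0807 to 0.202). Relative to the class Rpl7l1 was 2.39 ± 0.37 above in Th17 (adjusted p = 9.23e-10) and 1.22 ± 0.36 above in Treg cells (adjusted p = 0.00261). Its share of the pair's counts was 3.95% and 2.73% in naive, 14.2% and 10.8% in Th17 and 7.35% and 6.26% in Treg libraries.

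**Figure D5:**
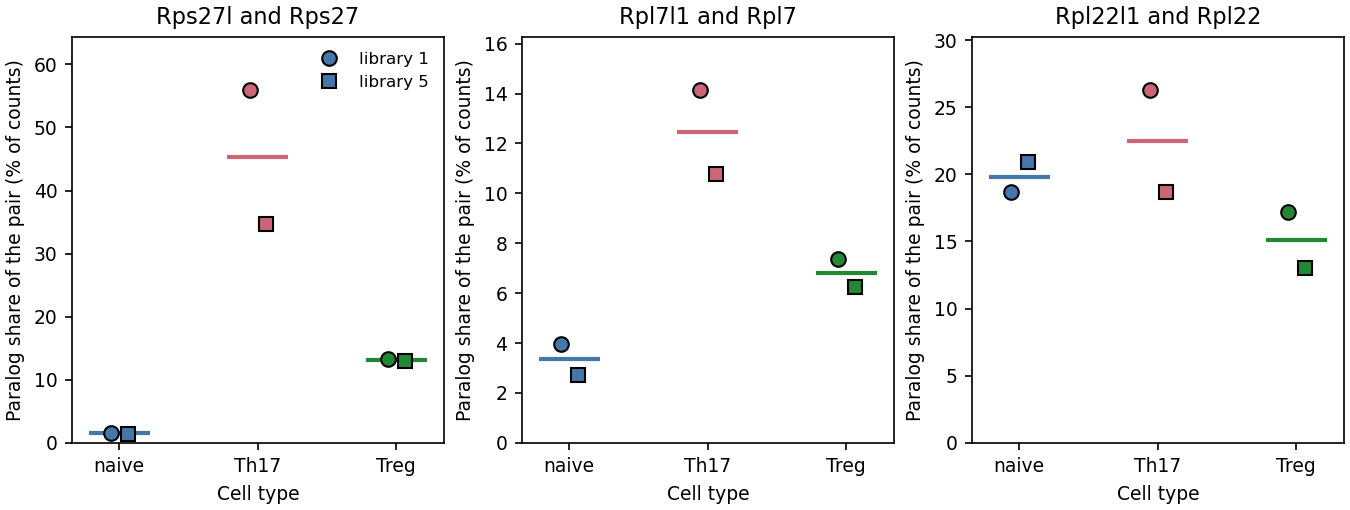
Share of a paralog in the counts of the paralog and its parent gene (y axis, %, separate scale in each panel, each from 0) by cell type (x axis) for Rps27l with Rps27, Rpl7l1 with Rpl7 and Rpl22l1 with Rpl22; circles and squares are libraries 1 and 5 and bars are means of 2. The Th17 libraries hold the highest shares for Rps27l and Rpl7l1, while for Rpl22l1 the naive and Th17 libraries overlap.

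Rpl22l1, the paralog that Rpl22 represses in mouse, fell with the class. It stood at 139 and 247 CPM in naive, 76.9 and 63.6 in Th17 and 81.2 and 75.4 in Treg libraries. Its log2 fold change was -1.45 ± 0.22 in Th17 (adjusted p = 6.72e-05) and -1.30 ± 0.22 in Treg cells (adjusted p = 2.99e-04). Its departures from the class did not pass (0.21 and -0.40, adjusted p = 0.601 and 0.357). The sequence of Rpl22l1 is shared with other genes more than that of the other paralogs measured: 58.9% of its 50-base words occur in genes elsewhere, against 16.2% for Rps27l and 7.48% for Rpl7l1.

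The paralogs known from testis and muscle had few or no counts. Rpl10l, a testis gene that takes over from the X-linked Rpl10, had 0 counts in all 6 libraries, where 3 counts per library correspond to 0.161 to 0.207 CPM. Rpl39l, another testis gene, had 11 and 4 counts in naive, 1 and 3 in Th17 and 2 and 6 in Treg libraries, against 2596 to 11892 counts for Rpl39. Rpl3l, known from heart and skeletal muscle, had 9 and 0 counts in naive, 0 in both Th17 libraries, and 2 and 0 in Treg libraries, against 28174 to 44019 for Rpl3. These 3 members were not tested. Rpl36al had 41 and 55 counts in naive, 46 and 38 in Th17 and 19 in each Treg library, and was lower in Treg than naive cells (-1.59 ± 0.46, adjusted p = 0.0111), a call that ended without naive library 5 or either Treg library (adjusted p = 0.0574 to 0.0696). Its class-scale value in Treg against Th17 cells was -1.85 ± 0.60 (adjusted p = 0.00699). Of its 50-base words, 20.8% lie in an overlapping gene on the same strand.

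Rpl13a, whose protein also takes part in translational silencing after interferon-gamma in human monocytic cells, was the third member above its naive level. Rpl13a (chromosome 7, 45125558 to 45128761, minus strand) stood at 51.2 and 62.0 CPM in naive, 92.6 and 66.3 in Th17 and 73.4 and 71.7 in Treg libraries. Th17 library 1 was the highest and both naive libraries the lowest. It rose in Th17 cells by 0.49 ± 0.18 (adjusted p = 0.0309), a call that ended without naive library 1 (0.36, adjusted p = 0.173) or Th17 library 1 (0.24, adjusted p = 0.388). Treg against naive did not pass (0.36 ± 0.18, adjusted p = 0.124). Relative to the class it was 2.11 ± 0.37 above in Th17 (adjusted p = 7e-08) and 1.20 ± 0.36 above in Treg cells (adjusted p = 0.00349). The level of Rpl13a is low for the class, at 32.9 CPM per kilobase, and 41.1% of its 50-base words lie in an overlapping gene on the same strand, so its counts are uncertain.

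Per kilobase, among the 81 members tested, Rpl36al, Rpl24, Rps10, Rpl13a and Rpl7l1 were lowest, from 1.61 to 34.4 CPM per kilobase, where Rplp1 reached 4929. For Rpl24, 69.4% of the 50-base words lie in an overlapping gene on the same strand, and it had between 50 and 82 counts per library. For Rps10 that share was 24.9%. Rps10 stood at 12.5 and 10.7 CPM in naive, 11.3 and 8.33 in Th17 and 9.73 and 8.19 in Treg libraries, and the naive and Th17 libraries overlapped. On the class scale Rps10 was 1.33 ± 0.39 above in Th17 cells (adjusted p = 0.00123). However, the processed pseudogene Rps10-ps2 had 39711 counts over the 6 libraries where Rps10 had 1033, and 97.6% of the counts of Rps10 and its 4 named pseudogenes were in the pseudogenes. Rps10-ps2 had 8454 and 11697 counts in naive, 2720 and 3648 in Th17 and 6057 and 7135 in Treg libraries, the order of the class. With the pseudogene counts added, Rps10 fell in Th17 (-1.93, adjusted p = 3.04e-06) and in Treg cells (-0.87, adjusted p = 0.00416), and its departure from the class turned from above to below and did not pass (-0.31, adjusted p = 0.384).

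For most other members the pseudogenes named after them held a small part of the counts. Pseudogenes under other names were not counted, such as Rpl6l with 1222 to 2638 counts per library, so these shares are lower bounds. The table names 296 pseudogenes after 60 of the members, taken by name whatever their biotype. Rps12-ps3 (18288 counts over all libraries) and Rpl9-ps6 (17828) are annotated as protein coding. Together the 296 had 3.63 to 4.71 counts per 100 member counts in each library. These pseudogenes held over 50% of the combined counts only for Rps10, Rpl21 (56.8%) and Rpl17 (52.7%), which were named after their values were seen. Adding them to their parents left the counts of members lower and higher at most 1.5 times apart except that 1 instead of 2 members was lower in Treg than Th17 cells, where the call of Rpl7l1 was lost (adjusted p = 0.0510). Over 50% of the 50-base words were shared with another gene in 28 of the 84 members, and the median share in genes elsewhere was 35.6%.

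Beside Rps27, the small subunit genes Rps21, Rps29, Rps16 and Rps24 were among the members that fell further than the class in Th17 cells. Rps21 stood at 892 and 1341 CPM in naive, 169 and 191 in Th17 and 418 and 502 in Treg libraries. Its log2 fold change was -2.64 ± 0.23 in Th17 cells (adjusted p = 1.98e-07), with a class-scale value of -1.01 ± 0.32 on the log2 scale (adjusted p = 0.00260).

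Rps29 was the member that fell most beside Rps27 in Treg cells. It stood at 755 and 1309 CPM in naive, 146 and 251 in Th17 and 234 and 358 in Treg libraries, so that the Th17 and Treg libraries overlapped. On the class scale it was at -0.76 ± 0.33 in Th17 (adjusted p = 0.0270) and -0.93 ± 0.33 in Treg cells (adjusted p = 0.0116). Rplp1 also departed in Treg cells (-0.64 ± 0.25, adjusted p = 0.0225). Rps16 and Rps24 had class-scale values of -0.76 ± 0.26 and -0.73 ± 0.26 in Th17 cells (adjusted p = 0.00615 and 0.00815), and neither passed in Treg cells. The departures of Rps29 ended without either Treg library, and the one in Th17 cells also without Th17 library 1 (-0.51, adjusted p = 0.277).

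Among members that stood above the class in Th17 cells, Rps2 and Rpl41 are abundant. Rps2, whose protein lies at the entrance of the messenger RNA channel, stood at 2190 and 3084 CPM in naive, 2145 and 1512 in Th17 and 1914 and 2054 in Treg libraries, and the lower naive library lay only just above the higher Th17 library. Its log2 fold change did not pass (-0.53 ± 0.25, adjusted p = 0.0800), and it lay 1.11 ± 0.25 above the class (adjusted p = 1.38e-05). Rpl41, which encodes a very short peptide of the large subunit, stood at 1306 and 2068 CPM in naive, 1073 and 1150 in Th17 and 1047 and 1274 in Treg libraries. It fell in Th17 cells (-0.60 ± 0.24, adjusted p = 0.0411), a call that ended in 8 of 14 alternatives. It lay 1.03 ± 0.27 above the class in Th17 cells (adjusted p = 2.56e-04), and its class-scale value in Treg against Th17 cells was -0.70 ± 0.27 (adjusted p = 0.0238). Rpl3, which lies near the peptidyl transferase centre, stood above the class in both types (0.89 ± 0.25 in Th17, adjusted p = 4.99e-04, and 0.58 ± 0.24 in Treg cells, adjusted p = 0.0390). The Treg value of Rpl3 ended in 6 of 11 alternatives.

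Members with and without a tract near the annotated start had medians close to each other. The search took any tract of the set length within 30 bases of an annotated start, which need not be the first base of the messenger RNA. A member without a match may therefore carry a TOP tract, and one with a match may lack it, so these medians do not compare TOP with other messenger RNAs. Members with a tract had a median log2 fold change of -1.56 in Th17 against naive cells (39 members tested), and members without one had -1.63 (22 members). In Treg cells the medians were -0.86 and -0.80. Of the genes described above, Rps24, with a tract at its start, and Rps16, without one near its start, fell by 2.35 and 2.38 on the log2 scale.

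Libraries of 1 type differed as a class. Library 5 was higher than library 1 by a median log2 difference of 0.59 over the members in naive cells, where 80 of 81 were higher, and by 0.22 in Th17 (67 of 81) and in Treg cells (75 of 81). Without naive library 5 the median of the members was -1.29 for Th17 and -0.55 for Treg cells against naive cells. The member with the widest gap within a type was Rpl17, named after its values were seen, at 207 CPM in Treg library 1 and 786 in Treg library 5, while its pseudogene Rpl17-ps10 had 10833 and 4492 counts in the same libraries.

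Proteins of the ribosome that carry other names moved in part with the class. Fau, which encodes a ubiquitin-like protein fused to a small subunit protein, stood at 1572 and 2291 CPM in naive, 431 and 499 in Th17 and 924 and 982 in Treg libraries. It fell in Th17 (-2.05 ± 0.23, adjusted p = 2.57e-06) and Treg cells (-1.02 ± 0.22, adjusted p = 0.00179). Rack1, a scaffold on the small subunit, fell in Th17 cells (-1.24 ± 0.24, adjusted p = 4.37e-04) and did not pass in Treg cells (-0.45, adjusted p = 0.137).

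Other messenger RNAs known to carry a TOP tract went both ways. Of 16 tested, 7 fell and 3 rose in Th17 cells, where 28.4% of all genes fell and 29.3% rose. In Treg cells 4 fell and 3 rose, where 19.9% and 23.6% of all genes did. The medians were -0.21 and -0.16. Tpt1, which encodes the abundant protein TCTP, stood at 7526 and 11164 CPM in naive, 1620 and 2008 in Th17 and 4510 and 5008 in Treg libraries and had a log2 fold change of -2.36 ± 0.28 in Th17 cells (adjusted p = 5.54e-06). The elongation factor gene Eef1b2 (-1.27 ± 0.22) and the initiation factor gene Eif3e (-1.14 ± 0.19) fell as well. Nap1l1, a histone chaperone gene (0.84 ± 0.18), Pabpc1, the poly(A)-binding protein gene (0.66 ± 0.20), and Eif4b (0.54 ± 0.18) rose. In Treg cells Eef2, the translocation factor gene, rose by 0.71 ± 0.24 (adjusted p = 0.0274).

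Among 12 genes of the pathway that controls TOP messenger RNAs, 5 rose and 1 fell in Th17 and 6 rose and 1 fell in Treg cells, against 29.3% and 28.4% of all genes in Th17 and 23.6% and 19.9% in Treg cells. Eif4ebp1, the translation repressor that mTOR inactivates, stood at 4.78 and 8.09 CPM in naive, 68.3 and 55.5 in Th17 and 56.4 and 62.3 in Treg libraries. It rose by 3.27 ± 0.24 in Th17 (adjusted p = 3.46e-08) and 3.21 ± 0.24 in Treg cells (adjusted p = 8.27e-08). Myc, which drives ribosome production, rose by 1.82 ± 0.17 and 1.92 ± 0.17. Larp1 stood at 186 and 133 CPM in naive, 564 and 443 in Th17 and 428 and 381 in Treg libraries and rose by 1.66 ± 0.20 (adjusted p = 7.31e-06) and 1.34 ± 0.20 (adjusted p = 8.79e-05). Its relative Larp1b rose in Treg cells by 2.00 ± 0.19 and did not pass in Th17 cells (0.22). Rheb, the small GTPase that activates mTOR, fell in Th17 cells (-0.64 ± 0.16), and the S6 kinase gene Rps6kb1 fell in Treg cells (-0.46 ± 0.15).

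Of 7 tested genes for dedicated chaperones of ribosomal proteins, 3 fell in Th17 and 2 in Treg cells and 0 rose (edgeR; medians -0.40 and -0.31), where 28.4% and 19.9% of all genes fell. Bccip, known for carrying the protein of Rpl23, had -0.94 ± 0.18 in Th17 and -0.78 ± 0.18 in Treg cells, Ltv1, a factor of small subunit assembly, had -0.64 ± 0.19 and -0.79 ± 0.19, and Tsr2, the chaperone of the protein of Rps26, had -0.61 ± 0.23 in Th17 cells.

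The authors' deposited table listed 83 of the 84 members and gave, at their adjusted p under 0.05, 3 higher and 74 lower in Th17 and 2 higher and 63 lower in Treg cells, with median log2 fold changes of -1.57 and -0.82. For Rps27l the authors' deposited table gave log2 fold changes of 2.41 and 1.33, and for Rps27 -3.20 and -2.00.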

How the data were processed

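Per the labels' protocols, RNA was taken with the RNeasy Micro kit and libraries were made with a SMARTER mRNA-Seq kit. Named without versions in the submitters' processing notes are the tools cutadapt, STAR and DESeq2 and the build mm10. The sources used here do not give the counting tool, its use of strand or the annotation release. The deposited counts are whole numbers without normalization; the authors' table also gives the gene lengths used here per kilobase. Per the file headers the table also holds the authors' log2 fold changes and adjusted p-values against naive cells, printed only as theirs. The 6 other deposited columns of per-library values were not used. Columns name type and a number (1 or 5), titles use other numbers, so columns were matched to types only.

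Members, gene lists and tests were chosen with earlier results of these data known. Counts were tested with edgeR 4.0.16 in R 4.3.3 (TMM, genes kept by filterByExpr at a minimum count of 10, a mean per type over all 6 libraries, 3 residual degrees of freedom, quasi-likelihood F-test, Benjamini-Hochberg adjustment over 15543 genes, threshold 0.05). SE is approximate: the absolute log2 fold change over the square root of F. A second fit scaled libraries on 79 members. Both were also run on simulated data, with an outcome that is not reported here. There each gene varied independently, without the shift of the whole class between libraries of 1 type seen here. Alternatives were DESeq2 1.42.0, limma-voom (limma 3.58.1), other scalings, no filter, 4 libraries, a replicate block, added pseudogene counts and each library left out. Libraries of 1 type were not copies of one another: a chi-square of their counts, per degree of freedom, was 37.0 in naive, 19.4 in Th17 and 16.5 in Treg cells. Sharing was measured as 50-base words of GENCODE M21 transcripts found in other genes; 98.1% of the table's genes have that release's coordinates. Floors of 3 counts cover counting error only. Named are members with listed roles or paralogs, up to 6 departures per direction and comparison with non-overlapping libraries, the 5 highest and lowest per kilobase, untested members and up to 3 called genes per other list and direction; a few genes under these rules are not reported here.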

Additional observations from a re-analysis of the deposited data

How the results depend on the processing

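Depth limits Rpl36al, Rpl24 and Rps10, and 2 libraries a type limit all calls. With 1 library left out in turn, members lower in Th17 than naive cells numbered 70 to 75 and higher 2 to 3 (median -1.88 to -1.29), lower in Treg than naive cells 22 to 73 and higher 1 (median -1.07 to -0.55), higher in Treg than Th17 cells 10 to 66 and lower 1 to 2 (median 0.55 to 0.85). Members departing from the class numbered 14 to 29, 1 to 10 and 1 to 13 in these comparisons, and shares of counts 11.6 to 15.9% in naive, 5.20 to 5.98% in Th17 and 8.11 to 9.33% in Treg libraries. With no filter, and with the 4 libraries compared only, 1 member was higher in Treg than naive cells. With no filter, and with pseudogene counts added, 1 was lower in Treg than Th17 cells. With no filter 5 departed between Treg and Th17 cells. With added pseudogene counts Rps10 turned on the class scale to -0.31 in Th17 against naive and 0.31 in Treg against Th17 cells, where its counts are mostly the pseudogene's. The cause of the others was not tested.

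Whether equal library numbers mark paired samples is not stated. Deviations of equally numbered libraries correlated at 0.017, 0.214 and 0.059 over genes (naive with Th17, naive with Treg, Th17 with Treg). With 2 libraries a type these values cannot settle it, and in each type library 5 was above library 1 for most members. With a replicate block by number, 40, 19 and 17 members departed from the class, in place of 25, 7 and 8, and all 105 calls of members under the naming rule held. Of these 105, 75 on the TMM scale and 30 on the class scale, 41 and 11 held under every alternative run and 2 changed direction, both of Rps10.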
